A study of Mus musculus with 2 samples.

Results

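The levels of 10 long non-coding RNA genes were described in p65-null and p65 wild-type mouse embryonic fibroblasts. They were chosen by name, with earlier results of these data known, from the transcripts of the deposited table. In it they are 10 of 16881 transcripts and 10 of 997 transcripts of long non-coding RNA (lncRNA) genes. They comprise a pair of nuclear RNAs (Malat1 and Neat1), 7 host genes of small nucleolar RNAs (Gas5, Snhg1, Snhg3, Snhg5, Snhg6, Snhg12 and Epb41l4aos) and Pvt1, the lncRNA gene beside Myc. The p65-null cells (genotype p65-/-) lack p65, the NF-kB transcription factor subunit encoded by Rela, and the wild-type cells (p65+/+) carry it. Both are immortalised fibroblast cultures of strain C57BL/6, sequenced from total RNA, and no treatment is given in the labels. Neither the method of immortalisation nor the number of embryos or clones behind each culture is given in the sources used here. The study asked which genes differ in RNA level when p65 is missing.

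The study has 1 library of each genotype. No spread between replicates could be measured, no test was run, and genotype cannot be told apart from any other difference between the 2 cultures. One such difference lay in the same class of RNA: Xist, the lncRNA of the inactive X chromosome of female cells, had 0.132 CPM in p65-null against 45.1 CPM in wild-type cells. The intervals below are 95% exact intervals that cover counting error only. The p65-null library held 15441394 counted fragments and the wild-type library 20794476. Rela itself had 198.5 fragments in the p65-null library against 1918 in the wild-type library, or 13.1 against 90.5 CPM (counts scaled to library size), which is 6.90-fold lower. Of 12 fibroblast markers listed, 11 were measured, but their levels differed between the cultures: in p65-null cells 4 stood 2-fold or more above wild-type and 1 below it, with log2 ratios (p65-null over wild-type) from -3.10 for Thy1 to 3.64 for S100a4 and a median of 0.59. Measured here means a mean of at least 1 CPM, which 12135 transcripts reached. Epithelial markers gave 0 measured of 5 and skeletal muscle markers 0 of 3, while blood markers gave 2 of 5 (Cd68 and Csf1r), endothelial markers 1 of 5 (Kdr) and neural markers 3 of 4. Of the neural markers, Sox2 had 143.5 fragments in p65-null against 2 in wild-type cells and Tubb3 had 400.5 against 1618.5. The part of such markers in the values below was not tested.

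Small nucleolar RNAs (snoRNAs) mostly guide the chemical modification of ribosomal RNA, and most in mammals are cut from the introns of host transcripts. Many hosts carry no conserved protein, begin with a run of pyrimidines as ribosomal protein mRNAs do (a terminal oligopyrimidine start), and have spliced RNAs that are degraded by nonsense-mediated decay. Malat1 is a nuclear RNA of splicing speckles, and the long form of Neat1 is the scaffold of paraspeckles. Both end in a genomically encoded triple helix instead of a poly(A) tail, formed by U-rich letters and an A-rich tail.

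The ends of the nuclear pair are shown first because they set these RNAs apart in sequence from the spliced hosts. They were read from GENCODE M21 transcripts on GRCm38 and written as DNA, and the capitals mark the runs of at least 10 letters that both ends share. The Malat1 stretch lies at chr19:5795982-5796081 on the minus strand, just before the tRNA-like mascRNA that is cut from its end, and the Neat1 stretch is the end of its transcript at chr19:5824708-5824807 on the minus strand.
Malat1: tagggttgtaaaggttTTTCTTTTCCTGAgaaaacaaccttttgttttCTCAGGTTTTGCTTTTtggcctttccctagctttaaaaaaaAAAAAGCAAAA
Neat1: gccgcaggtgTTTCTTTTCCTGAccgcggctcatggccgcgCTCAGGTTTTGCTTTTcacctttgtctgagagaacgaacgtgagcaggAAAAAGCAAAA
The ends shared 3 such runs, of 13, 16 and 11 bases, and the longest holds a U-rich stretch and the last is the A-rich tail. Among 55341 genes of that annotation, 2 had a transcript that held the 16-base run followed within 60 bases by the 11-base run. These were Malat1 and Neat1, and the search was on the sense strand. Its letters were taken from these 2 ends, so the match of both was fixed in advance. Triple-helix ends with other letters were not searched for.

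The starts of 4 hosts are shown because they carry a run of pyrimidines near the start, marked in capitals. The run began at base -1 from the start for Gas5 and -3 for Snhg12. For Snhg5 and Snhg1 it began inside the transcript, at bases 8 and 5. Of the 4, 3 also hold TATATA or TATAAA upstream, in capitals too. Each window runs from 45 bases before to 30 after the RefSeq start on GRCm38.p6. The windows are chr1:161035121-161035195 (plus strand) for the downstream of 2 Gas5 starts (the upstream one, where the counted transcript begins, has neither mark), chr4:132308633-132308707 (plus) for Snhg12, chr9:88522868-88522942 (minus) for Snhg5 and chr19:8723442-8723516 (plus) for Snhg1.
Gas5: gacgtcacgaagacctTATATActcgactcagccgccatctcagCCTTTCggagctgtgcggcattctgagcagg
Snhg12: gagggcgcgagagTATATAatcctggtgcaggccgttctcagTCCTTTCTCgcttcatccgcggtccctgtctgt
Snhg5: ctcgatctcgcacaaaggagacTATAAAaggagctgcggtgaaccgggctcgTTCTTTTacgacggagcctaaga
Snhg1: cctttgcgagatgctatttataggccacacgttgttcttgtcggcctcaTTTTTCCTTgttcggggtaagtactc
A run of at least 6 pyrimidines that began within 10 bases of the start was found on the sense strand of 4 of the 7 windows matched to 6 of the 10 genes, against 23.1% of all 32851 promoter windows. TATAAA or TATATA at 40 to 16 bases before the start, on the sense strand, was found in 3 of the 7, against 2.73% of all. The NF-kB letters GGG and TTTCC with any 2 bases between them, searched on both strands of the 300 bases around each start, were in 0 of the 7 windows and in 1.63% of all. These searches were chosen after the RNA values were seen, and a match of letters is a description only.

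In p65-null cells 8 of the 10 genes had a log2 ratio below 0 (p65-null over wild-type, normalised CPM), where 51.2% of all measured transcripts did. Neat1 and Epb41l4aos were at least 2-fold lower in p65-null cells, and 0 of the 10 were at least 2-fold higher. Over all measured transcripts 13.7% were at least 2-fold lower and 12.2% at least 2-fold higher, and over the 382 measured lncRNA transcripts 16.8% and 12.6%, with 49.7% below 0 and 29.3% at least 2-fold apart, beside 25.9% of all. Gas5 and Pvt1 stood above 0, Gas5 within counting error and at -0.33 when ribosomal protein genes set the scale. The median log2 ratio of the 10 was -0.57, beside -0.03 for all measured transcripts and 0.01 for measured lncRNAs. These counts depend on GC content, as set out below: with a correction for GC content and length, 4 of the 10 were below 0 and their median was 0.10, beside -0.09 for all transcripts with the correction. On that scale Snhg12 and Epb41l4aos were at least 2-fold lower, where 10.2% of all transcripts were.

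**Figure D1:**
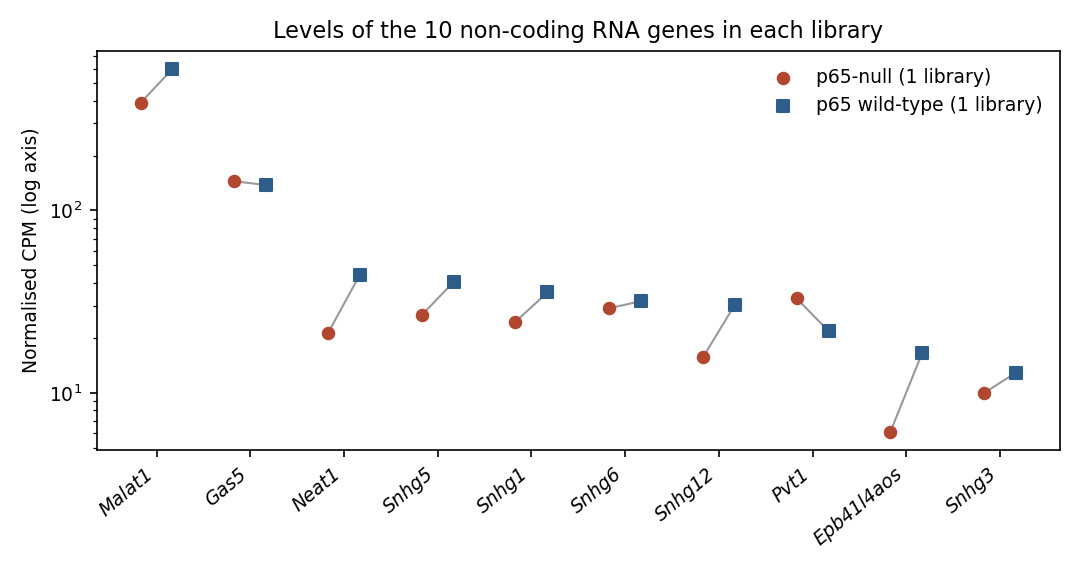
Normalised CPM on a log axis for each of the 10 genes, with the p65-null library as a red circle and the wild-type library as a blue square, 1 library each. The p65-null value is the lower of the pair for 8 genes and the higher for Gas5 and Pvt1.

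The plot of levels shows the range between the genes. The summed level of the 10 was 700.2 CPM in p65-null and 969 CPM in wild-type cells, a log2 ratio of -0.47. The 7 snoRNA hosts summed to 257 CPM against 305 CPM (-0.25), and without Gas5 to 112 CPM against 168 CPM (-0.58). Gas5 thus held the sum of the hosts closer to 0 than most hosts were singly.

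Malat1 (NR_002847, chromosome 19, 5795690 to 5802672, minus strand, 1 exon) had 5898.5 fragments in p65-null cells against 12666.5 in wild-type cells. Its normalised level was 389 CPM against 598 CPM, a log2 ratio of -0.62 (-0.66 to -0.57), or 1.53-fold lower (1.49 to 1.58). It was the most abundant of the lncRNA transcripts in both libraries and held 9.56% of their summed CPM in p65-null and 12.8% in wild-type cells. In bulk RNA, fewer cells that make an RNA and less of it per cell cannot be told apart. With the GC and length correction its log2 ratio was 0.14, on the other side of 0.

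Neat1 (NR_131212, chromosome 19, 5824708 to 5845480, minus strand), the paraspeckle scaffold, had 322 fragments in p65-null against 942 in wild-type cells. That is 21.3 CPM against 44.4 CPM, a log2 ratio of -1.06 (-1.25 to -0.88), 2.09-fold lower with an interval of 1.84 to 2.38 that holds the 2-fold line. The counted transcript is the long, 20771-base form, and reads of the short form fall in the same first stretch, so the forms were not separated. Per kilobase of the counted length Neat1 was the lowest of the 10 in both libraries, at 1.02 CPM per kb in p65-null and 2.14 CPM per kb in wild-type cells. By the median length of its GENCODE transcripts, 2017 bases, it stood at 10.5 CPM per kb in p65-null cells and in wild-type cells ranked 9 of the 10, above Pvt1 (18.2 CPM per kb by its own median length). Malat1, its neighbour 22036 bases away, stood at 55.8 and 85.6 CPM per kb of counted length. The Malat1 to Neat1 fragment ratio, which needs no scaling between libraries, was 18.3 in p65-null and 13.4 in wild-type cells.

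Genes that build the bodies these RNAs belong to were listed by name. Of 29 paraspeckle protein genes, 19 were below 0, 3 were at least 2-fold lower (Matr3, Srsf10 and Fam98a) and 0 at least 2-fold higher, with a median log2 ratio of -0.24. Matr3, an RNA-binding protein of the nuclear matrix, had 45.2 CPM in p65-null against 158 CPM in wild-type cells (log2 ratio -1.81, -1.93 to -1.69), and -0.65 with the GC and length correction. Of 27 nuclear speckle splicing factor genes, 27 were below 0, the highest at -0.0093, and their median was -0.56, while 1 was at least 2-fold lower: Srsf10, a splicing regulator, at 32.2 CPM against 83.5 CPM (-1.37, -1.52 to -1.23). Their transcripts were low in GC content as a list, and with the correction the median of the list was -0.24.

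Gas5, Snhg1, Snhg5 and Snhg6 host box C/D snoRNAs, a class of which most, but not all, guide methylation of ribosomal RNA. Gas5 (NR_002840, chromosome 1, 161034601 to 161038539, plus strand), first described as an RNA that accumulates in growth-arrested cells, had 2191.5 fragments in p65-null against 2920.5 in wild-type cells. Its level was 145 CPM against 138 CPM, a log2 ratio of 0.07 with an interval of -0.01 to 0.15 that spans 0, and 0.66 with the GC and length correction. Its counted transcript keeps introns: it is 2556 bases long, where the median of 25 GENCODE transcripts of Gas5 is 629 bases, and 5 of the 8 snoRNA genes inside Gas5 lie in its counted exons. Its level per kilobase depends on that choice, at 56.6 CPM per kb in p65-null and 53.9 in wild-type cells by the counted length and 230.0 and 219 by the median length.

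Gas5 also overlaps Zbtb37 on the other strand, and since use of strand is nowhere stated, reads of the overlap cannot be told apart. Zbtb37 had 79.5 fragments in p65-null against 150.5 in wild-type cells (-0.44).

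Snhg1 (NR_002896, chromosome 19, 8723487 to 8726326, plus strand), with 8 snoRNA genes in its introns, had 371.5 fragments in p65-null against 752 in wild-type cells. It stood at 24.5 CPM against 35.5 CPM, a log2 ratio of -0.53 (-0.72 to -0.35). Snhg5 (NR_040721, chromosome 9, 88521052 to 88522897, minus strand) had 404 fragments against 859, at 26.7 CPM against 40.5 CPM, a log2 ratio of -0.60 (-0.78 to -0.43). Both were lower in p65-null cells by less than 2-fold, and the ratio of their counts was close in the libraries, at 0.920 in p65-null and 0.875 in wild-type cells. With the GC and length correction they parted, Snhg1 at 0.05 and Snhg5 at -0.40.

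Snhg6 (NR_024067, chromosome 1, 9942025 to 9944118, minus strand), host of Snord87, had 440.5 fragments in p65-null against 674.5 in wild-type cells. At 29.1 CPM against 31.8 CPM its log2 ratio was -0.13, with an interval of -0.31 to 0.05 that spans 0. By the counted length it was the highest of the 10 per kilobase in p65-null cells, at 72.7 CPM per kb, against 79.6 in wild-type cells, where Malat1 was higher. It overlaps Mcmdc2 on the other strand, a gene with 2 fragments against 9.5.

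Snhg3 and Snhg12 host box H/ACA snoRNAs, a class of which most, but not all, guide pseudouridine formation. The human counterpart of Epb41l4aos hosts this class too, and Snhg12 hosts a box C/D snoRNA as well. Snhg3 (NR_003270, chromosome 4, 132351933 to 132353686, minus strand) had 151 fragments in p65-null against 273.5 in wild-type cells, or 9.97 CPM against 12.9 CPM. Its log2 ratio was -0.37 (-0.67 to -0.08), and 0.31 with the GC and length correction. Snhg12 (NR_029468, chromosome 4, 132308678 to 132311024, plus strand), about as close to the 2-fold line as Neat1 but inside it, had 237 fragments against 643.5, or 15.6 CPM against 30.4 CPM. Its log2 ratio was -0.96 (-1.18 to -0.74), 1.94-fold lower with an interval of 1.67 to 2.26, and -1.14 with the correction.

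Epb41l4aos (NR_038151, chromosome 18, 33794892 to 33795989, plus strand), a short 3-exon lncRNA with 1 snoRNA gene inside it, had the lowest ratio of the 10. It had 92.5 fragments in p65-null against 351 in wild-type cells, or 6.11 CPM against 16.6 CPM. Its log2 ratio of -1.44 (-1.79 to -1.10) is 2.71-fold lower, with an interval of 2.15 to 3.45. It was the only one of the 10 whose whole interval lay past 2-fold lower, as it did for 9.1% of all measured transcripts (7.95% lay past 2-fold higher). With the correction its log2 ratio was -1.90.

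Pvt1 (NR_003368, chromosome 15, 62037986 to 62260215, plus strand), a lncRNA gene often amplified with Myc in tumours, was the member with the highest ratio. It had 498.5 fragments in the p65-null library against 462.5 in the deeper wild-type library. Its level was 32.9 CPM against 21.8 CPM, a log2 ratio of 0.59 (0.41 to 0.78), 1.51-fold higher with an interval of 1.33 to 1.72. The correction left it at 0.59. Against Neat1, a comparison free of scaling, the Neat1 to Pvt1 count ratio was 0.646 in p65-null and 2.04 in wild-type cells.

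**Figure D2:**
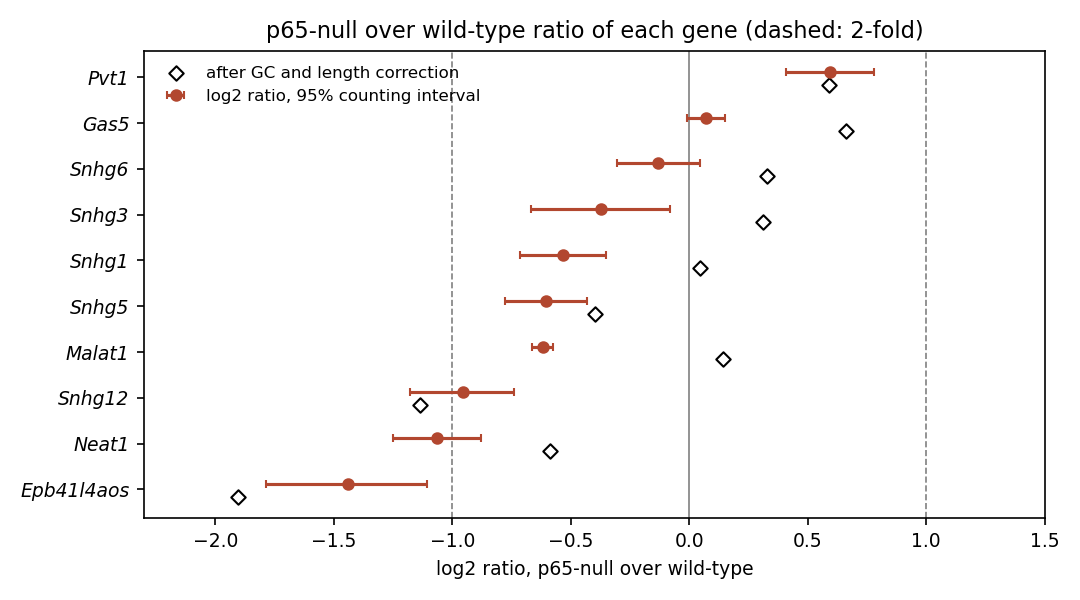
Log2 ratio of p65-null over wild-type for each of the 10 genes, with its 95% counting interval and its value after correction for GC content and length. Epb41l4aos is lowest at -1.44 and Pvt1 highest at 0.59, and Malat1, Snhg1, Snhg3 and Snhg6 are above 0 after the correction.

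The plot of ratios shows which genes keep their side of 0. Before correction the ratios ran from -1.44 to 0.59. Neat1, Snhg5, Snhg12 and Epb41l4aos were below 0 and Gas5 and Pvt1 above 0 on both scales, while Malat1, Snhg1, Snhg3 and Snhg6 were below 0 before it and above 0 after it. Neat1 was not 2-fold lower after it, at -0.59.

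Across 12059 measured genes the log2 ratio moved with transcript GC content (Spearman rho 0.43, given as a description over genes of the same 2 libraries). In bands of 5 GC points, which were chosen after the values were seen, the median log2 ratio was -1.10 for the 473 transcripts at 35 to 40%, -0.61 for the 2113 at 40 to 45%, -0.18 for the 3097 at 45 to 50% and 0.32 for the 2474 at 55 to 60%. Malat1, Gas5, Snhg1, Snhg3 and Snhg6 lie in the band at 40 to 45%. Within it Malat1 stood at percentile 49.5 and Snhg1 at 53.5, near the middle of transcripts of like GC, with Snhg3 at 63.3, Snhg6 at 74.6 and Gas5 at 81.4. In the band at 45 to 50%, Neat1 stood at percentile 10.8, Snhg12 at 13.1, Snhg5 at 25.3 and Pvt1 at 84.5. Epb41l4aos, at 55.3% GC, stood at percentile 3.56 of a band whose median is above 0.

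**Figure D3:**
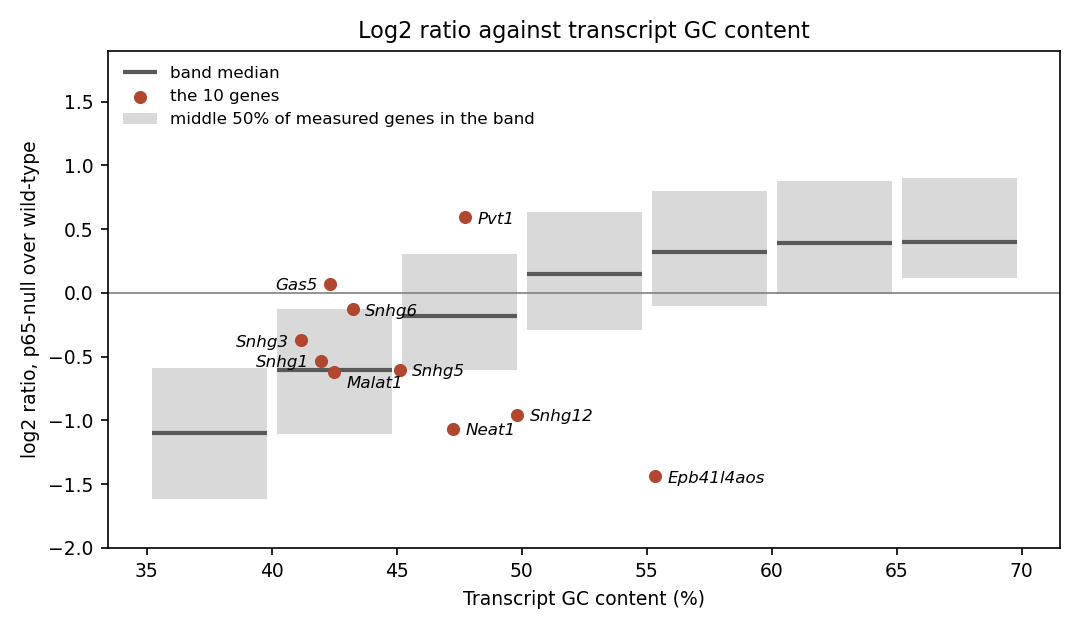
Log2 ratio of p65-null over wild-type against transcript GC content in percent, with the 10 genes as red points, band medians as dark lines and the middle 50% of measured genes of each band as grey boxes. Malat1 and Snhg1 sit on the median of their band, Pvt1 and Gas5 above their boxes, and Neat1, Snhg12 and Epb41l4aos below theirs.

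The table holds rows for 7 of the 26 snoRNA genes annotated inside the 7 hosts. Most were at a few fragments: Snord47 in Gas5 had 2.5 in each library, Snord87 in Snhg6 had 1 in p65-null against 3 in wild-type cells, and in Snhg12 Snora16a had 10 against 10.5, Snora61 7.5 against 5.5 and Snord99 2.5 against 8. Snord22 and Snora44 had more than 30 in each library, and their sequences (GENCODE M21, GRCm38) are shown with Snord47, a snoRNA with both conserved boxes, in which capitals mark box C (TGATGA) and box D (CTGA). Snord22 holds the box D letters alone, and in Snora44 no letters are marked. They lie at chr19:8725866-8725991 (plus), chr4:132309941-132310069 (plus) and chr1:161038082-161038158 (plus).
Snord22: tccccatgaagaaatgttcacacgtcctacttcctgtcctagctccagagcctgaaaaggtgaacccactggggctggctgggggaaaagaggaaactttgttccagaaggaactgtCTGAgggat
Snora44: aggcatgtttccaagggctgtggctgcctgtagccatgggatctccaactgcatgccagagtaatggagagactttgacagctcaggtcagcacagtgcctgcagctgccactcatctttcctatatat
Snord47: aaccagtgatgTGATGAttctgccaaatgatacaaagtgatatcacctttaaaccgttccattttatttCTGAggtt
Both letters, box C before box D, occur in 68 of 98 Snord transcripts of that annotation (69.4%). Snord22, with 54.5 fragments in p65-null against 71 in wild-type cells, had a log2 ratio of 0.10 (-0.43 to 0.63), beside -0.53 for its host Snhg1. Snora44, with 38 against 41 fragments, had 0.38 (-0.30 to 1.05), beside -0.96 for Snhg12. Both intervals span 0, and fragments of mature snoRNA and of unspliced host RNA at the same place cannot be told apart.

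Each gene was then set beside the nearest measured genes on its chromosome. Epb41l4a, a gene for a band 4.1 family protein on the opposite strand whose 3' end faces that of Epb41l4aos across 338 bases, had 3.5 fragments in p65-null against 257 in wild-type cells. At 0.231 CPM against 12.1 CPM its log2 ratio was -5.71 (-7.77 to -4.25), 52.5-fold lower with an interval of 19.1 to 219. Nrep, 330527 bases to the other side, had 6.83 CPM against 22.5 CPM (-1.72, -2.04 to -1.41). These 3 genes of chromosome 18, Epb41l4aos included, were thus each at least 2-fold lower in p65-null cells, and with the correction the neighbours stood at -5.88 and -2.10.

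Pvt1 and its neighbours stood on different sides of 0. Myc, which encodes a growth-promoting transcription factor and lies 47625 bases upstream on the same strand, had 894 fragments in p65-null against 2186 in wild-type cells, 59.0 CPM against 103 CPM. Its log2 ratio was -0.81 (-0.92 to -0.69), and the Myc log2 ratio minus that of Pvt1, which needs no scaling, was -1.40. Cyrib, 1668879 bases to the other side, was at least 2-fold lower, at 22.7 CPM against 53.7 CPM (-1.24). Of 11 measured genes of the Myc network, 6 were below 0, with a median of -0.07: Mxd1, a repressor partner of Max, had 7.03 CPM against 3.47 CPM (1.02) and Mycl 4.03 CPM against 14.8 CPM (-1.88).

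Snhg1 shares a divergent start region with Slc3a2, the heavy chain of amino acid transporters, 118 bases away. Slc3a2 had 199 CPM in p65-null against 163 CPM in wild-type cells, a log2 ratio of 0.29 (0.22 to 0.36), where Snhg1 had -0.53. With the GC and length correction the order of the pair turned, to -0.21 for Slc3a2 and 0.05 for Snhg1. On the other side of Neat1 lies Frmd8, 5494 bases away, with 72.9 CPM against 48.8 CPM (0.58, 0.45 to 0.70). Rcc1, a chromatin-bound exchange factor 6183 bases from Snhg3, had 81.8 CPM against 125 CPM (-0.61), and Trnau1ap, 739 bases from Snhg12, had 35.9 CPM against 40.6 CPM (-0.18). Beside Snhg5, Syncrip, an RNA-binding protein gene, stood at -0.77 and Zfp949 at 0.85. Beside Snhg6, Sgk3, a kinase gene 39455 bases away, was 4.62-fold higher in p65-null cells on few reads, with 33 fragments against 10 (2.21, 1.15 to 3.39), and Cops5 stood at 0.14. At the Neat1 and Pvt1 loci the nearest protein-coding genes were thus on the other side of 0 from the lncRNA, and at the Epb41l4aos, Snhg3 and Snhg12 loci on the same side.

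**Figure D4:**
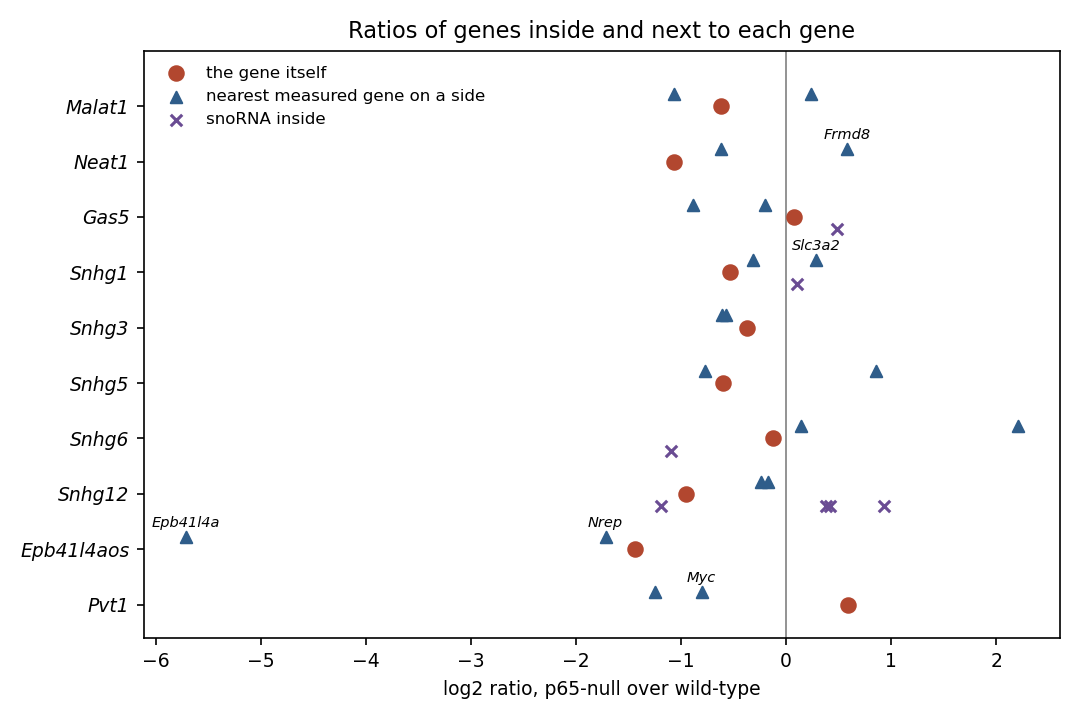
Log2 ratio of p65-null over wild-type for each of the 10 genes (red circles), the nearest measured gene on each side (blue triangles) and snoRNA rows inside it (purple crosses). Epb41l4a stands farthest out at -5.71, next to Epb41l4aos at -1.44, and Myc at -0.81 lies opposite Pvt1 at 0.59.

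Other genes of the same pathways were counted from lists chosen by function. Of 15 other measured lncRNA genes that host small RNAs, 10 were below 0, 4 were at least 2-fold lower and 1 at least 2-fold higher, with a median of -0.42. The lower ones were Snhg4 at 9.18 CPM in p65-null against 18.9 CPM in wild-type cells (-1.04), Dancr at 6.60 against 14.5 CPM (-1.14), Snhg14 at 3.10 against 6.77 CPM (-1.13) and Mir17hg, a microRNA host, at 1.19 against 3.30 CPM (-1.47). The higher one was Snhg18, at 44.4 against 21.4 CPM (1.05, 0.88 to 1.23). Of these, Dancr (-1.02) and Snhg18 (1.05) were past 2-fold with the GC and length correction too.

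Of 41 protein-coding snoRNA hosts, 20 were below 0 and their median was 0.09. Of those hosts 4 were at least 2-fold lower and 0 at least 2-fold higher: Wdr43, a ribosome assembly factor, at 81.0 CPM in p65-null against 272 CPM in wild-type cells (-1.75), Hspa9, a mitochondrial chaperone, at 373 against 939 CPM (-1.33), Eif4g2, a translation factor, at 299 against 721 CPM (-1.27), and Tnpo1 (-1.21), a nuclear import receptor. After the GC and length correction Wdr43 (-1.35) and Hspa9 (-1.10) were still past 2-fold, while Eif4g2 (-0.58) and Tnpo1 (-0.21) were not. Ribosomal protein genes, known for the pyrimidine start, had 6 of 75 below 0 and a median of 0.47. Before correction 6 of the 7 lncRNA hosts stood on the other side of 0. Rpl37a alone was past 2-fold (1.02). With the correction the ribosomal protein median was 0.17, and Gas5, Snhg1, Snhg3 and Snhg6 stood on the same side of 0 as it, so the contrast held for Snhg5, Snhg12 and Epb41l4aos alone.

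Of 18 measured genes for snoRNA-binding and snoRNA-assembly proteins, 13 were below 0, with a median of -0.32. Naf1, an assembly factor of box H/ACA particles, was at least 2-fold lower, at 15.8 CPM in p65-null against 38.5 CPM in wild-type cells (-1.28, -1.50 to -1.07), and none was at least 2-fold higher. Of 21 nonsense-mediated decay genes 14 were below 0, 2 at least 2-fold lower and 0 at least 2-fold higher, with a median of -0.34. The lower ones were Etf1, the translation termination factor, at 77.2 CPM against 260.4 CPM (-1.75, -1.85 to -1.66), and Upf3b, a core decay factor, at 6.54 CPM against 16.4 CPM (-1.33).

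The 5 stress mRNAs known to be kept low by the same decay stood on both sides of 0. Their median log2 ratio was 0.10, and -0.31 with the GC and length correction. Atf4 had a log2 ratio of 0.10, Gadd45b 0.34, Atf3 0.89, Ddit3 -0.18 and Gadd45a -1.11. Atf4, a stress transcription factor and the most abundant of them, had 386 CPM in p65-null against 359 CPM in wild-type cells. Gadd45a alone was past 2-fold, with 47 fragments against 141.5.

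A last list held other lncRNA and structured RNA genes, of which 22 were measured. Of these 11 were below 0, 4 were at least 2-fold lower and 5 at least 2-fold higher, with a median log2 ratio of 0.0046. H19, an imprinted lncRNA of embryonic tissue, was 10.8-fold higher in p65-null cells, with 365 fragments against 47.5 (3.43, 2.99 to 3.89). The RNA components of RNase P and RNase MRP, Rpph1 and Rmrp, were 3.87-fold and 3.12-fold higher, with 288423.5 and 113708.5 fragments in p65-null against 104237 and 50952 in wild-type cells. The lower ones named were Kcnq1ot1, an imprinting RNA, at 8.19 CPM against 29.9 CPM (-1.87), Tug1 at 27.1 CPM against 58.5 CPM (-1.11) and Fendrr at 3.56 CPM against 7.31 CPM (-1.04). With the GC and length correction Kcnq1ot1 stood at -0.15, Tug1 at 0.12 and Fendrr at -1.51, so Kcnq1ot1 and Tug1, like Malat1, were near 0 on that scale.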

How the data were processed

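Total RNA of 1 p65-null and 1 wild-type culture was sequenced, per the labels. Tools in the submitters' processing notes were edgeR, HOMER, STAR 2.4 and bcl2fastq 2.16, with mm10 as the build. Their roles, the counting rule and the use of strand were not stated. The authors deposited scaled signal values for 16881 RefSeq transcripts, not raw counts. In each column all values below 5000 (15130 in p65-null, 15236 in wild-type) were whole multiples of 1 step (0.587 and 0.436) within 0.0055, so whole reads were recovered (100%), and 2 steps were taken as 1 fragment. Counts had been assumed in the plan. With 1 library per genotype no spread can be estimated, so no count test was run.

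Symbols came from a RefSeq gene table for 16743 transcripts and from GENCODE M21 for 83, and 55 had no match. Fragments were scaled in edgeR 4.0.16 under R 4.3.3 with trimmed-mean (TMM) factors of 0.981 for p65-null and 1.02 for wild-type. Ratios carry exact (Clopper-Pearson) 95% intervals from scipy 1.17.1 on the p65-null share of the fragments of both libraries, which cover counting error only, and the interval was tested on simulated data. The correction for GC content and length subtracted a loess trend (span 0.3) fitted over 12059 genes, which can also remove differences between the cells that follow GC content. Alternatives were other scalings (DESeq2 1.42.0 size factors among them), expression minimums, a prior count of 2 and a 1.5-fold line. The named genes are the 10, the snoRNA rows inside them, the nearest measured genes on each side, and of each list up to 3 higher and 3 lower by interval among those at least 2-fold apart. Where a list had few such genes all were named, and Snhg14 and Tnpo1 were chosen after their values were seen. The 10 genes and the lists were chosen with earlier results of these data known.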

Additional observations from a re-analysis of the deposited data

How the results depend on the processing

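With 1 library per genotype, depth limits counting error alone: the 10 genes had between 92.5 and 12666.5 fragments, and culture differences were not tested. Across scalings the median of the 10 stood -0.54 from that of all measured transcripts, while that of all transcripts moved to -0.44 with ribosomal protein genes as the scale and to 0.09 with the upper quartile, from -0.03. DESeq2 size factors and leaving out the 10 most abundant transcripts changed no count of the 10.
Of the 10, 3 were at least 2-fold lower by total counts (14.9% of all measured transcripts) and 1 by the upper quartile (11.7%). With ribosomal protein scaling 5 were (24.8%), and by the interval end nearest to 0, 1 was (9.1%). At a 1.5-fold line 5 were lower (3032 of 12135 transcripts) and 1 was higher (22.2%). With the GC and length correction their median was 0.10. The cause of each shift was not tested.
By total counts, other lncRNA hosts had 0 higher, the Myc network 0 higher and 2 lower, and ribosomal proteins 0 higher. By the upper quartile, stress mRNAs had 1 higher and 0 lower, other lncRNAs 2 lower, and the ribosomal protein median was 0.58. With ribosomal protein scaling, other hosts had 0 higher, protein-coding hosts 10 lower (median -0.31), snoRNP proteins 5 lower (-0.72), decay factors 7 lower, speckle factors 11 lower (-0.97), the Myc network 0 higher and 3 lower, other lncRNAs 3 higher and 7 lower, ribosomal proteins 0 higher (0.064), and the paraspeckle median was -0.64.
With the correction, other hosts had 2 lower, protein-coding hosts 1 higher, decay factors 1 lower, paraspeckle proteins 1 higher and 1 lower, speckle factors 3 lower (-0.24), the Myc network 0 higher and 2 lower, and ribosomal proteins 2 higher (0.17). With no minimum the Myc network had 2 higher, with a prior count of 2 it had 0, and with a minimum of 5 CPM other hosts had 2 lower and stress mRNAs 0 lower.
All measured transcripts gave 1475 higher and 1667 lower, 900 and 3013 with ribosomal protein scaling, 2461 higher with no minimum and 924 higher at 5 CPM. Higher ones were 46.9% of those 2-fold apart, 23.0% with ribosomal protein scaling and 55.0% by the upper quartile. Single genes of the 10 and the median of all transcripts moved in 25 of 89 alternatives, 11 of them with ribosomal protein scaling. No paired analysis was possible because each genotype had 1 library and no result comes from a test.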
